A study of Mus musculus with 20 samples.

Results

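Effector T follicular helper (TFH) cells were the cells that the authors had put in their effector cluster, 1 of 6 clusters of splenic follicular T cells. They numbered 682 of the 28192 cells with RNA. The cells came from 5 wild type (WT) and 5 mixed 564Igi bone marrow chimeras on the C57BL/6 strain, with 1 droplet library of RNA 5′ ends and 1 library of T cell receptors (TCRs) for each mouse. All recipients were irradiated. WT chimeras received congenic marrow alone and were given NP-OVA, a hapten coupled to ovalbumin, in alum at week 6. 564Igi chimeras received congenic marrow mixed with marrow of 564Igi mice, whose B cells carry knocked-in heavy and light chains against ribonuclear complexes, and no immunization is given for them. Each condition is therefore 1 kind of chimera, and the autoreactive B cells cannot be told apart from the absence of the foreign antigen. The sample labels put the end point 10 weeks after irradiation for all mice, while the methods of the study also describe a booster of NP-OVA for immunized chimeras, which the labels do not name. CD3+CD4+ cells with CXCR5 and PD-1 at the surface, CD45.2+ and CD45.1-, were sorted, so CXCR5 and PD-1 protein was present on every cell by design. The labels give 2 female and 3 male WT mice and 3 female and 2 male 564Igi mice.

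TFH cells are CD4 T cells that enter B cell follicles and give help to germinal center B cells through cytokines such as IL-21 and IL-4 and through CD40 ligand. Their program is held by the transcription factors Bcl6 and TCF-1, the product of *Tcf7*. Cytotoxic and type 1 effector T cells instead use T-bet and Eomes, store granzymes and perforin in granules, and secrete interferon γ and the chemokines CCL3, CCL4 and CCL5, which attract other immune cells.

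The 564Igi mice 13, 17, 21, 24 and 34 gave 95, 60, 173, 45 and 35 effector cells, and the WT mice 11, 12, 14, 23 and 36 gave 77, 23, 57, 71 and 46. These orders of mice hold wherever 5 values are given for a condition below. All 10 mice had 20 or more effector cells and entered every comparison of conditions, but mouse 12 did so with 23. The median UMI total of the effector cells of a mouse was 3634 ± 484 (SD, n = 10 mice) and that of its other cells 3520 ± 468. The median number of genes found was 1553 ± 168 in effector and 1628 ± 148 in other cells. It was lower in effector cells in 8 of 10 mice. The median percent of mitochondrial UMIs was 2.67 ± 0.249 in effector and 3.36 ± 0.266 in other cells and was lower in effector cells in 10 of 10 mice. A cell barcode was also present in another library for 17 of the 682 effector cells. In the labels, mice 34 and 36 carry library numbers apart from the other 8. The labels do not call this a batch, and results that turn on these mice are given without them or with a term for their libraries in the fit.

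The markers of the cluster stood at higher levels in its cells than in other cells. Since the clusters were made from these values, this describes the cluster and does not test its label. A level is here the mean over the cells of a mouse of log2(corrected count + 1), where the corrected count is the authors' UMI count after normalization, and a share is the percent of cells with at least 1 corrected count. The chemokine gene *Ccl5* was found in 76.1% ± 14.7 of effector cells (SD, n = 10 mice) against 7.64% ± 2.18 of the other cells of the same mice. The granzyme gene *Gzmk* was found in 83.1% ± 9.60 against 5.34%. *AW112010*, a transcript known from inflammatory responses, was found in 95.5% against 91.5% and so marked the cluster by its level, which was higher by 1.08 ± 0.462 on the log2 scale. The T cell genes *Cd3e* and *Cd3d* were found in 99.3% and 97.6% of effector cells, and *Cd4* in 75.7% ± 8.80 against 67.1% of other cells.

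Markers of other cell types were then examined, and most but not all of them were at or near 0 in effector cells. *Ms4a1*, *Cd79a* and *Pax5*, which define B cells, were at 0 in all effector cells, which allows a share of up to 0.440% of cells with a count (3 of 682, counting error only), and the summed level of the 10 B cell markers in the matrix was 0.106 to 0.362 across mice in effector cells and 0.540 to 1.11 in other cells. *Cd74*, the invariant chain gene on the B cell list, was found in 10.90% ± 4.17 of effector and 30.5% of other cells, with a lower level in 10 of 10 mice. The CD8 marker *Cd8b1* was found in 4.87% of effector and 4.58% of other cells, and *Cd8a* was not in the matrix used here. *S100a8* and *S100a9* of myeloid cells were at 0, and the 9 myeloid markers summed to 0.199 to 0.822 in effector and 0.471 to 0.695 in other cells. On that list the lysosomal gene *Cd68* was found in 13.96% ± 12.3 of effector against 3.18% of other cells, from 0% in WT mouse 12 to 33.3% in WT mouse 14 and 564Igi mouse 17, with a higher level in 9 of 10 mice. The protease inhibitor gene *Cst3* was found in 36.1% against 45.5%, and the 2 genes were the list members with enough cells to describe. Whether myeloid RNA had a part in these values was not tested. *Il23r* and *Blk* of innate-like T cells were at 0, and none of the 544 effector cells with a TCR carried the TRAV11 and TRAJ18 segments of invariant natural killer (NK) T cells, which allows up to 0.551%. The 5 NK cell markers in the matrix summed to 0.814 to 1.6 in effector and 0.0439 to 0.133 in other cells, a list that includes *Eomes*. *Hba.a1* and *Hba.a2* of red cells were at 0, and the 4 erythroid markers summed to 0.0260 at most.

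Part of the chemokine and killing genes stood higher in the effector cells of every mouse than in its other follicular T cells, and part of the genes of follicular help stood lower, while members of each of these lists went the other way. Since the clusters were made from these values, the differences are a description and were not tested. The 27510 other cells include 11650 follicular regulatory T (TFR) cells. A difference from the other cells is therefore not one from other TFH cells alone. Over the 10214 genes described, 244 (2.39%) were higher and 670 (6.56%) lower in effector cells in 10 of 10 mice, and the median difference was -0.0048. These shares are the background for the gene lists that follow, and nothing is read from them beyond the description.

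Of the 5 chemokine genes with enough cells to describe, 4 were higher in 10 of 10 mice and *Cxcl10* was lower in 10 of 10, by a difference of -0.09, and the median difference of the list was 0.69. The level of *Ccl5* in effector cells was 4.74, 5.44, 5.32, 4.24 and 2.71 in WT and 5.93, 5.20, 7.32, 5.13 and 3.92 in 564Igi mice. Its difference from the other cells of the same mouse ran from 2.63 in WT mouse 36 to 7.19 in 564Igi mouse 21, with a mean of 4.87 ± 1.23. Mouse 36 was the lowest of the WT and mouse 34 the lowest of the 564Igi mice. *Ccl4* was found in 39.4% ± 12.9 against 0.401% and *Ccl3* in 34.6% against 0.372% of cells, both inflammatory chemokines. *Xcl1*, which encodes an attractant of cross-presenting dendritic cells, was found in 22.2% of effector cells and in 9.09% or less of the cells of each other cluster.

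Genes of granules and killing made up the second group. Of 16 described, 7 were higher and 3 lower in 10 of 10 mice, and the median difference was 0.15. *Nkg7*, which encodes a granule membrane protein needed for degranulation, differed by 2.98 ± 0.420 and was found in 91.7% ± 6.67 against 11.2% of cells. *Gzmk* differed by 2.16 ± 0.379. The pore-forming protein gene *Prf1* was found in 26.9% against 0.504%, the granzyme gene *Gzmb* in 19.4% against 0.653%, and the death receptor ligand gene *Fasl* in 31.8% against 3.63%. *Gzma*, which is abundant in NK cells and CD8 killers, was found in 1.45% against 0.982%. The granule proteoglycan gene *Srgn* was lower by a difference of -0.61 the lysosomal membrane gene *Lamp1* by -0.24 and the vesicle fusion gene *Stx11* by -0.22, each in 10 of 10 mice. *Gzmk* and *Nkg7* were thus found in most effector cells, while *Gzmb* and *Prf1* were found in a minority, and *Gzmb* or *Prf1* was found in 283 of the 682 cells (41.5%).

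**Figure D1:**
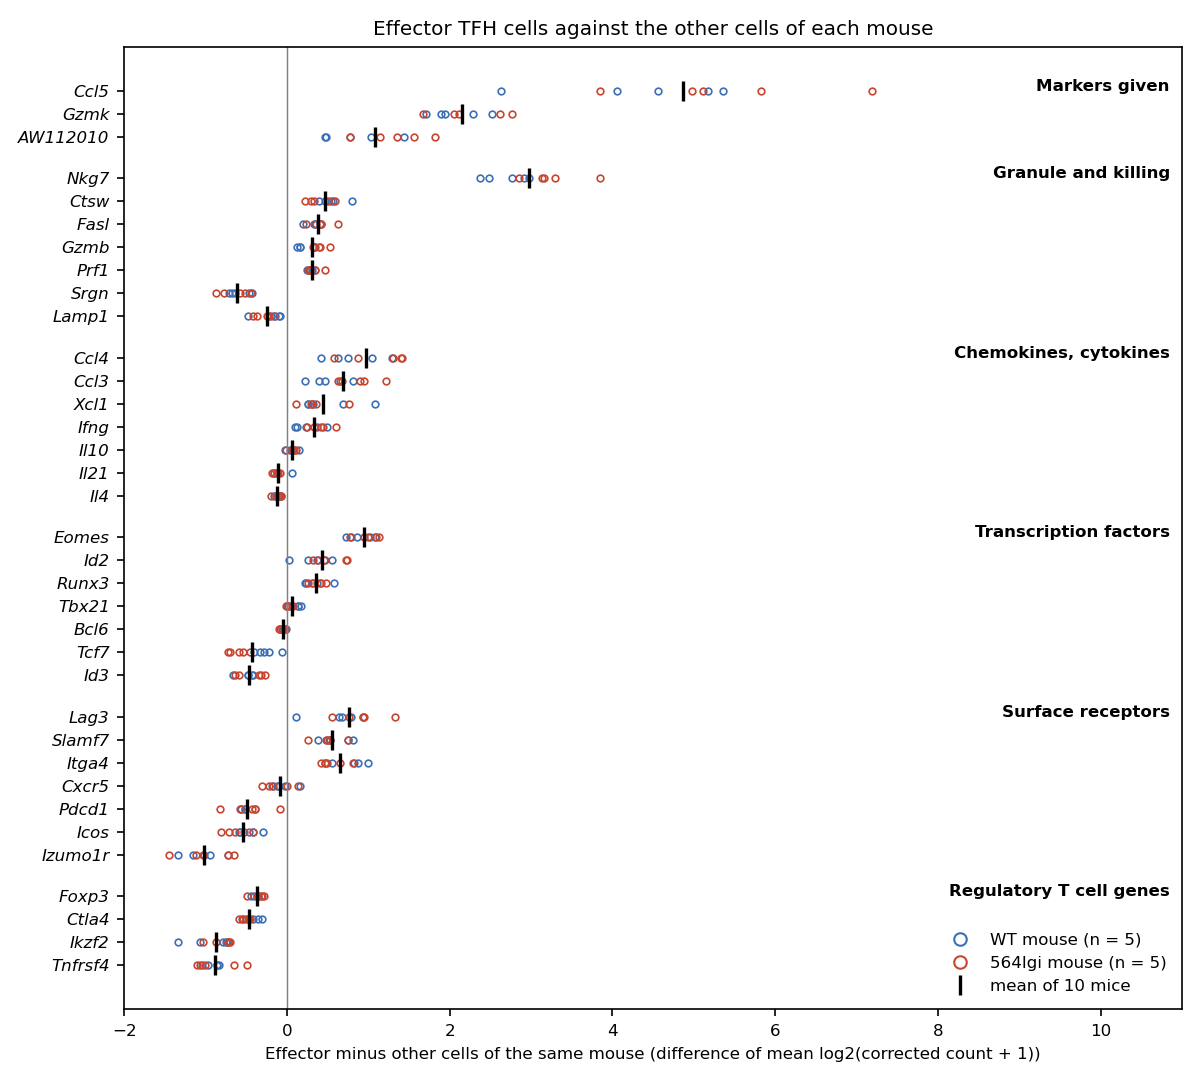
Each point is 1 mouse (blue WT, red 564Igi, n = 5 each), and its place on the x axis is the mean log2(corrected count + 1) of effector cells minus that of the other cells of the same mouse, with the mean of 10 mice as a black bar. *Ccl5* lies between 2.63 and 7.19 in the 10 mice, while *Izumo1r*, *Tnfrsf4* and *Ikzf2* lie below 0 in all of them.

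Among type 1 and effector transcription factors, 5 of 12 were higher in 10 of 10 mice and none was lower in 10. *Eomes* was found in 62.8% ± 7.25 against 2.0% of cells. *Runx3*, which keeps the killing program in CD8 T cells, was found in 38.8% against 9.79%, and *Id2*, an inhibitor of E proteins, in 46.9% against 23.6%. *Tbx21*, which encodes T-bet, was found in 11.9% against 5.93%, with a higher level in 8 of 10 mice and a mean difference of 0.06. *Eomes* was therefore the T-box gene seen in most effector cells at this depth.

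The transcription factors of TFH cells went the other way for most members. Of 15, 9 were lower and 1, *Tox*, was higher in 10 of 10 mice, with a median difference of -0.09. *Id3*, whose product restrains TFH commitment, was found in 17.9% against 43.6% and *Tcf7* in 40.7% against 61.4%. *Ascl2*, which drives *Cxcr5*, was found in 4.76% against 17.9% and *Bcl6* in 6.39% against 11%. *Klf2*, which keeps T cells in circulation and restrains the follicular program, was found in 34.7% against 20.3% and had a higher level in 7 of 10 mice. *Maf* differed by -0.04.

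Surface and help genes followed the same pattern, with 9 of 17 lower and 1 higher in 10 of 10 mice and a median difference of -0.16. *Izumo1r*, which encodes folate receptor 4, was found in 67.7% against 90.6%, *Tnfsf8* (CD30 ligand) in 16.8% against 45.5%, *Icos* in 40.3% against 65.7% and *Cd40lg* in 11.5% against 35.5%. *Pdcd1*, which encodes PD-1, was found in 62.4% against 75.9% and differed by -0.49. *Cxcr5* was found in 36.7% against 40.8% and differed by -0.08, a gap smaller than that of *Pdcd1*. The higher gene was *Il21r*, with a difference of 0.08. *Sh2d1a*, which encodes the SLAM adaptor SAP, was higher in 8 of 10 mice, with a mean difference of 0.26.

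The cytokine transcripts separated effector cells from the help cytokines of TFH cells. *Ifng* was found in 32.9% ± 11.7 against 8.97% and was the 1 cytokine of 11 with a higher level in 10 of 10 mice. *Il4* was found in 0.566% against 9.89% and *Il21* in 6.44% against 15.3%, the latter with a lower level in 9 of 10 mice. *Il10*, which encodes a suppressive cytokine, was found in 7.71% against 2.75%. Of 19 cytokine receptor genes, 2 were higher and 5 lower in 10 of 10 mice. *Il10ra* was found in 45.2% against 11.5%, and *Il6st*, the shared signal chain of the IL-6 receptor, in 6.62% against 29.9%.

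Receptors for inhibition and for movement split within their lists. Of 13 inhibitory receptors, *Lag3*, *Entpd1* and *Havcr2* were higher in 10 of 10 mice, and *Pdcd1*, *Ctla4*, *Btla* and *Vsir* were lower. *Lag3* was found in 70.4% against 48.2% with a difference of 0.77, *Entpd1* (CD39) in 24.5% against 6.04%, and *Havcr2* (TIM-3) in 11.7% against 0.438%. The median of this list was 0.0027. Of 26 chemokine and homing receptors, 7 were higher and 5 lower. *Itga4*, the α4 integrin chain, was found in 77.7% against 49.4%. *Itgb7*, a β chain that pairs with α4 for gut homing, was found in 23.4% against 49.3%. NK receptors and adaptors had 4 of 11 higher and none lower in 10 of 10 mice, with the SLAM family receptor *Slamf7* in 42.3% against 3.75%.

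Genes of regulatory T cells were low in effector cells. Of 15, 10 were lower and none was higher in 10 of 10 mice, with a median difference of -0.23. *Foxp3* was found in 4.08% against 27.8%, *Ikzf2* (Helios) in 38.5% against 74.9%, *Tnfrsf4* (OX40) in 27.4% against 66.1% and *Ctla4* in 18.5% against 46.3%. The other cells include the TFR cluster. In activated TFH cells alone *Ikzf2* was found in 62.4% and *Foxp3* in 7.2%, so for *Ikzf2* the gap was also present against a cluster with few *Foxp3* cells. Of the remaining lists, 7 of 16 glycolytic enzymes were lower and none higher in 10 of 10 mice, 1 of 22 interferon-stimulated genes was higher and 3 were lower, and 1 of 11 heat shock genes was lower. Among 18 genes that respond to TCR signals, *Rgs1*, *Nr4a2*, *Ier3* and *Dusp2* were higher and *Cd69* and *Egr3* lower in 10 of 10 mice. *Nr4a2* was found in 17.4% against 1.97% and *Rgs1* in 58.4% against 16.7%.

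Outside these lists, the largest positive differences included the transcriptional coactivator *Sub1* (0.79), the protease *Ctsd* (0.77), the surface protein *Thy1* (0.75) and the TCR adaptor *Lat* (0.69). The most negative outside them were those of the G protein regulator *Rgs10*, found in 22.7% against 75.0% of cells with a difference of -1.09, *Hif1a* at -0.87 and *Tmsb10* at -0.83. Of the list members, *Ly6e* (-1.09) and *Ifi27l2a* (-1.07) of the interferon-stimulated list, *Izumo1r* (-1.02), *Tnfrsf4* (-0.89) and *Ikzf2* (-0.87) were also among the 8 most negative genes.

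Several of these genes were also found in central memory TFH cells, and others were not. *Eomes* was found in 53.0% ± 13.6 of central memory cells (n = 8 mice with 20 or more such cells) and in at most 1.62% of the cells of each of the other 4 clusters. *Slamf7* was found in 52.2% of central memory and 42.3% of effector cells, *Il10ra* in 41.7% and 45.2%, and *Nkg7* in 58.0% and 91.7%. The clusters parted over other genes. *Ccl4* was found in 1.38% of central memory cells, *Gzmb* in 0.0676% and *Ifng* in 1.90%, against 39.4%, 19.4% and 32.9% of effector cells. *Tcf7* was found in 82.0% of central memory and 40.7% of effector cells. Activated TFH cells, the largest cluster, had *Ifng* in 13.5% and *Tbx21* in 7.85% of cells and *Eomes* in 0.983%. The share of cells with *Ccl5* was 15.3% in central memory, 10.3% in TFR and between 3.11% and 8.58% in the other 3 clusters. For *Gzmk* it was 24.9% in central memory and 1.41% in TFR cells, so the order of the clusters differed between these genes. RNA released by broken cells was not removed.

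**Figure D2:**
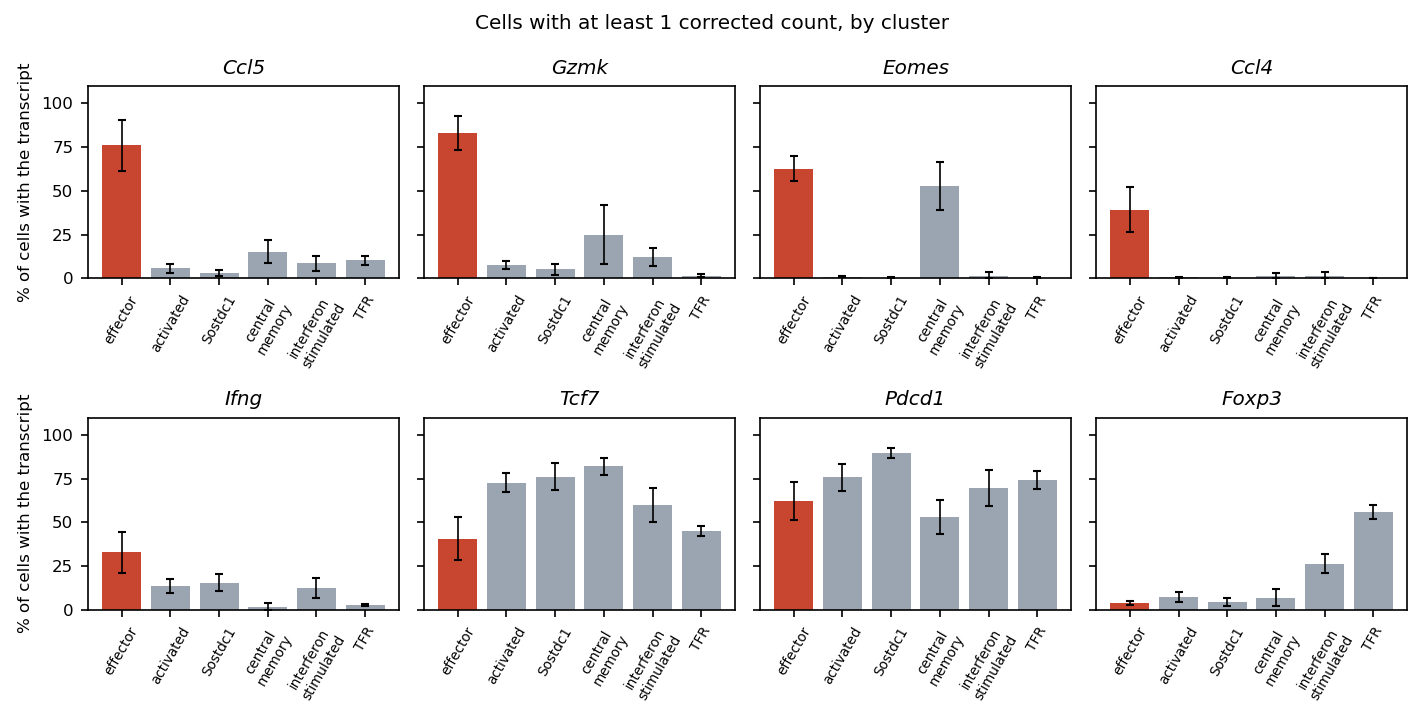
Bars show the percent of cells with at least 1 corrected count of each of 8 genes in each of the 6 clusters, as the mean over mice with 20 or more cells of the cluster, and error bars show the SD over these mice. *Eomes* stands at 62.8% in effector and 53.0% in central memory cells, while *Ccl4* stands at 39.4% in effector cells and at most 1.47% in the other clusters.

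Within the cluster the markers did not mark every cell. *Ccl5* and *Gzmk* were found together in 519 of 682 cells (76.1%), *Gzmk* alone of the pair in 72, *Ccl5* alone in 31 and neither in 60 (8.80%). In 15 cells none of the 3 markers was found. The share of cells with both *Ccl5* and *Gzmk* was 70.1, 73.9, 80.7, 62.0 and 41.3% in WT and 87.4, 71.7, 95.4, 64.4 and 54.3% in 564Igi mice. Mice 36 and 34 were again the lowest of their conditions, and the conditions overlapped (two-sided exact permutation p = 0.405, 0.714 adjusted over 18 such shares). In the other clusters 168 of 27510 cells (0.611%) held both transcripts, 100 of them in the activated and 42 in the central memory cluster.

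Transcripts of secreted products were also uneven among effector cells. *Ccl3* or *Ccl4* was found in 343 cells (50.3%). *Ifng* was found in 47.3% ± 10.6 of the cells with *Ccl3* or *Ccl4* and in 20.9% ± 9.14 of those with neither (n = 10 mice). Cells with more UMIs are more likely to show any transcript, and the part of depth in this difference was not tested. *Eomes* was found in 58.8% of the cells with both *Ccl5* and *Gzmk* and in 69.3% of the cells that lacked either. Cells without the pair were placed in the cluster by other genes, which can include *Eomes*, so nothing is read from these shares. *Foxp3* was found in 30 cells (4.40%).

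The share of effector cells among the follicular T cells was compared between conditions. It was 2.71, 0.855, 3.02, 2.02 and 1.14% in WT and 3.14, 1.98, 5.55, 4.01 and 1.20% in 564Igi mice. The mean was 1.95% ± 0.944 in WT and 3.17% ± 1.71 in 564Igi mice, the mice overlapped, and the difference of 1.23 percentage points was not past the threshold (two-sided exact permutation p = 0.183, 0.533 adjusted over 6 clusters). Mouse 21 held the highest share, and without it the difference was 0.634.

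*Gm42031*, a long intergenic non-coding RNA on chromosome 8 of GRCm38 (chr8:85125872-85132289, minus strand), was the 1 gene of 9637 tested (0.0104%) that was called in effector cells between conditions. Its level was 0.142, 0.0870, 0.354, 0.294 and 0.624 in WT and 1.44, 1.16, 1.75, 2.15 and 2.57 in 564Igi mice. The lowest 564Igi mouse lay above the highest WT mouse. It rose by 1.51 on the log2 scale (SE 0.149, limma with Benjamini-Hochberg adjustment, adjusted p = 1.38e-08), but by limma without the trend the adjusted p was 0.183 and no gene was called. Its share rose from 25.4% ± 16.1 to 81.2% ± 12. Its share among the other cells of the same mice was 36.1% in WT and 90.0% in 564Igi chimeras. The 564Igi effect in effector cells minus that in the other cells was -0.35 for *Gm42031* (limma adjusted p = 0.238). The authors normalized each condition on its own, and the part of that step in a difference between conditions was not tested.

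No other gene passed both thresholds, 0.01 for the adjusted p and 0.2 for the size of the log2 fold change. At an unadjusted p below 0.05, 161 genes (1.67%) were higher and 342 (3.55%) lower in 564Igi mice, and mice of the 2 conditions did not overlap for 19 genes (0.197%) higher and 66 (0.685%) lower. At an adjusted p below 0.05 with no limit on the fold change there were 6 genes (0.0623%), *Gm42031* and 5 that were lower in 564Igi mice, *Klf2*, *Tcf7*, *Id3*, *Tmsb10* and *Arl4d*. *Id3* and *Arl4d* were named after their values were seen.

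*Tcf7* had levels of 0.866, 0.902, 0.692, 0.548 and 0.715 in WT and 0.382, 0.478, 0.240, 0.402 and 0.524 in 564Igi effector cells. All 564Igi mice lay below all WT mice. The log2 difference was -0.34 (SE 0.0673, limma with Benjamini-Hochberg adjustment, adjusted p = 0.0343), past 0.05 but not past the threshold of 0.01 for a call. *Klf2* had levels of 0.895, 0.749, 0.829, 0.706 and 0.499 in WT and 0.395, 0.536, 0.230, 0.439 and 0.193 in 564Igi mice, which overlapped at WT mouse 36 and 564Igi mouse 17, with a difference of -0.38 (limma adjusted p = 0.0145). *Id3* ran from 0.325 to 0.441 in WT and from 0.0357 to 0.338 in 564Igi mice, with a difference of -0.22 (SE 0.0469, limma adjusted p = 0.0490). Without mice 34 and 36 these 3 genes, with *AW112010* and *Capg*, joined *Gm42031* among 6 called genes. With a term for the libraries of mice 34 and 36 in the fit, 3 genes were called, *Gm42031*, *Klf2* and *Ccl5*.

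Further genes whose mice did not overlap and whose difference exceeded 0.2 in size missed the threshold. *Ccnd2*, which encodes cyclin D2, had levels of 0.760, 0.750, 0.573, 0.757 and 0.568 in WT and 0.999, 1.31, 1.04, 0.945 and 1.05 in 564Igi mice, with a difference of 0.39 (limma adjusted p = 0.0523), which was 0.20 with an equal number of effector cells per mouse (adjusted p = 0.879). *Cd82*, a tetraspanin, ran from 0.985 to 1.46 in WT and from 1.5 to 2.04 in 564Igi mice, with a difference of 0.58 (limma adjusted p = 0.0581). *Slamf6*, a receptor of the SLAM family that signals through SAP in TFH cells, ran from 0.637 to 0.823 in WT and from 0.273 to 0.586 in 564Igi mice, with a difference of -0.28 (limma adjusted p = 0.107). The other genes without overlap above 0.2 in size were *Maf* (0.35), *Sub1* (0.35) and *Psme1* (0.25) with 564Igi mice above WT mice, and *Ass1* (-0.21) and *Gm26740* (-0.20) with 564Igi mice below, at limma adjusted p between 0.150 and 0.945.

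The genes that mark the cluster were at higher mean levels in 564Igi effector cells, with overlapping mice. *AW112010* had levels of 2.69, 3.53, 3.11, 3.03 and 2.70 in WT and 3.88, 3.68, 4.24, 3.48 and 3.01 in 564Igi mice, with a difference of 0.64 (SE 0.151, limma adjusted p = 0.0948). Mouse 34 was the lowest of the 564Igi mice, and without it the difference was 0.80 (limma adjusted p = 0.00288). *Ccl5* differed by 1.01 (SE 0.336, limma adjusted p = 0.752), and *Gzmk* by 0.18 (adjusted p = 0.961), which ran from 0.050 without 564Igi mouse 21 to 0.32 without 564Igi mouse 34. When mice were weighted by their number of effector cells, of which mouse 21 held 173, *Ccl5* differed by 1.70 (limma adjusted p = 0.00243), and with only the 8 mice with 40 or more effector cells by 1.65 (adjusted p = 0.00954). It fell to 0.558 with an equal number of effector cells per mouse (limma adjusted p = 0.804), to 0.558 without mouse 21 (adjusted p = 0.986) and to 0.567 without WT mouse 36 (adjusted p = 0.845). With the term for the libraries of mice 34 and 36 the difference stayed 1.01 and was called (limma adjusted p = 0.00816). The result for *Ccl5* thus depended on how mice and libraries were counted.

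**Figure D3:**
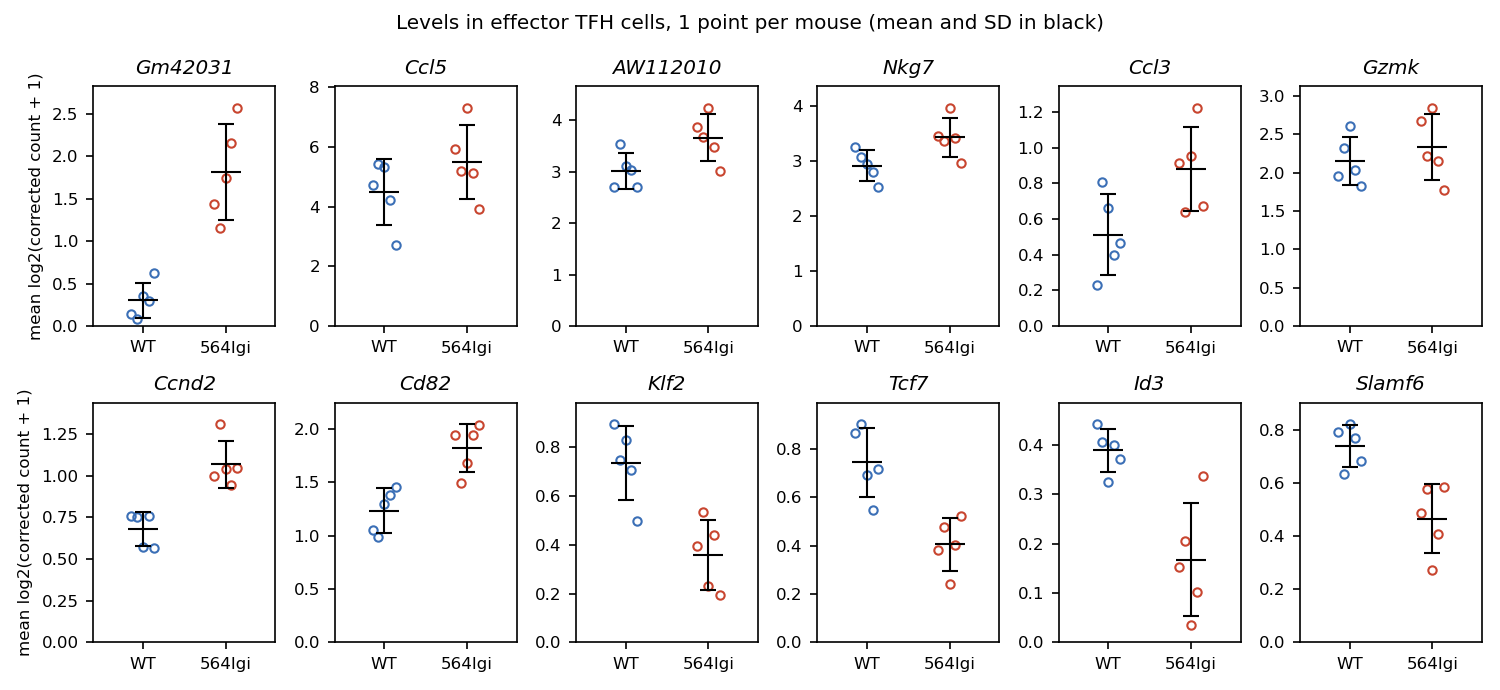
Points show the mean log2(corrected count + 1) of 12 genes in the effector cells of each mouse (blue WT, red 564Igi, n = 5 each), with the mean and SD in black and a y axis of its own for each gene. *Gm42031* runs from 0.0870 to 0.624 in WT mice and from 1.16 to 2.57 in 564Igi mice, while the mice overlap for *Ccl5*, *AW112010*, *Nkg7*, *Ccl3* and *Gzmk*.

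No member of a list was called, and *Gm42031* is in no list. The list counts that follow are of genes at an unadjusted p below 0.05. Of all 9637 genes tested, 1.67% were higher and 3.55% lower in 564Igi mice at that limit. Some lists held larger shares than these, and no list was tested as a set. Of 5 chemokines, 3 were higher in 564Igi mice and none was lower, with a median difference of 0.29 against -0.0043 over all genes tested. *Ccl3* had levels of 0.230, 0.808, 0.659, 0.399 and 0.465 in WT and 0.913, 0.637, 0.952, 1.22 and 0.673 in 564Igi mice, a difference of 0.37 with overlap (limma adjusted p = 0.150). Of 16 granule genes 3 were higher and 2 lower, with *Nkg7* differing by 0.52 (limma adjusted p = 0.237) and *Gzmb* by 0.17 (adjusted p = 0.417). Of 24 chemokine and homing receptors none was higher and 5 were lower. *Gpr183*, the receptor that positions lymphocytes at the follicle border, was found in 25.5% ± 6.83 of the effector cells of WT mice and 11.1% ± 4.72 of those of 564Igi mice, and its levels differed by -0.20 without overlap (limma adjusted p = 0.0682). *Ccr4* was found in 20.2% ± 6.69 and 8.45% ± 4.66, also without overlap in its levels (adjusted p = 0.150).

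The remaining lists divided as follows. Of 15 TFH transcription factors 3 were higher and 4 lower at an unadjusted p below 0.05, and of 16 surface and help genes none was higher and 2 were lower. Of 18 cytokine receptors 1 was higher and 6 lower, the smallest p being that of *Il18rap* at -0.07, a chain of the IL-18 receptor. Of 12 type 1 transcription factors 2 were higher and 1 lower, and *Eomes* differed by 0.07 (limma adjusted p = 0.973). Of 13 inhibitory receptors 3 were higher and 1 lower. *Lag3* had a share of 61.7% ± 13 in WT and 79.2% ± 4.34 in 564Igi effector cells, and its levels differed by 0.52 (limma adjusted p = 0.591). *Capg*, an actin capping protein gene of the regulatory T cell list, was found in 23.9% ± 10.4 and 45.9% ± 12.4 (limma adjusted p = 0.0682).

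Whether the 564Igi effect in effector cells differed from that in the other cells of the same mouse was tested gene by gene. None of 9637 genes (0.0%) was called by limma with its trend, and none by limma without the trend. At an unadjusted p below 0.05, 182 genes (1.89%) had the higher and 325 (3.37%) the lower effect in effector cells. The gene with the smallest p was *Tnfsf8*, for which effector minus other was -0.47, -0.36, -0.52, -0.48 and -0.39 in WT and -0.74, -0.59, -0.78, -0.81 and -0.57 in 564Igi mice. The difference between conditions was -0.25 (SE 0.0445, limma adjusted p = 0.0249), while the level in effector cells was 0.234 ± 0.0667 in WT and 0.207 ± 0.0727 in 564Igi mice and the share in other cells was 41.6% and 49.4%. The effector levels of *Tnfsf8* thus overlapped, and its gap to the other cells was wider in 564Igi mice. With a term for the libraries of mice 34 and 36, *Tnfsf8* was the 1 gene called (limma adjusted p = 0.00666).

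For *Tcf7* effector minus other was -0.22, -0.06, -0.28, -0.41 and -0.34 in WT and -0.54, -0.59, -0.72, -0.45 and -0.70 in 564Igi mice. The gap between effector and other cells was larger in each 564Igi mouse than in each WT mouse, with a difference of -0.34 (SE 0.0637, limma adjusted p = 0.0359), while *Tcf7* was found in 62.4% and 60.5% of the other cells. For *Nkg7* the gap was 2.91, 2.98, 2.76, 2.48 and 2.37 in WT and 3.29, 3.16, 3.84, 3.13 and 2.85 in 564Igi mice, with a difference of 0.56 (SE 0.126, limma adjusted p = 0.110). *Ccnd2* followed at 0.38 (adjusted p = 0.111), *Ikzf4* at 0.05 and *Tpt1* at -0.16 (adjusted p = 0.0508). Without WT mouse 12, which had the fewest effector cells, *Ccnd2* and *Tmsb10* were called.

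A receptor was read for 544 of the 682 effector cells, from 45.7% of them in WT mouse 36 to 88.3% in 564Igi mouse 17. TCR genes had been taken out before clustering, so the receptors are independent of how the cells were chosen. A clonotype is here the set of cells of 1 mouse with the same pair of α and β CDR3 amino acid sequences, and a clone is a clonotype of 2 or more cells in any cluster. The 544 cells fell into 293 clonotypes, 145 of them clones with 396 effector cells. Of the 145 clones, 26 lay entirely in the effector cluster and 119 had a cell in another cluster. The 18 clones with 5 or more effector cells held 217 effector cells, or 39.9%. The clone with 7 of 21 effector cells in 564Igi mouse 24 lists no β chain. By this definition 1 clone made up 48.4% of the effector cells with a receptor in WT mouse 11, 39.6% in 564Igi mouse 17 and 30.0% in WT mouse 14. In 564Igi mouse 21 the cells with 1 β chain made up 33.8%, but were split over several clones by their α listings.

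The CDR3 sequences of the largest effector clone of 5 mice show what these cells carried, with a pair of clones from mice 13 and 24 added for their likeness. The CDR3 is the loop of each receptor chain that meets the peptide, and its middle is made when the segments join. The sequences are those deposited for the cells, 5′ to 3′, and capitals mark the bases that matched neither the end of the V segment nor the J segment in the GENCODE vM21 transcripts of GRCm38. The TRBV10 sequence is all in lower case because its V end was not matched.
WT mouse 11, α (TRAV21-DV12, TRAJ56): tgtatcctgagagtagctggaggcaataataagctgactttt
WT mouse 11, β (TRBV5, TRBJ2-4): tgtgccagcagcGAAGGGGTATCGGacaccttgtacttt
WT mouse 14, β (TRBV31, TRBJ1-1): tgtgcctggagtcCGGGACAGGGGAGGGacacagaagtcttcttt
WT mouse 23, β (TRBV12-2 or TRBV13-2, TRBJ1-2): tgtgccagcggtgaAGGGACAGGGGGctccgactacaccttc
564Igi mouse 17, β (TRBV10, TRBJ2-7): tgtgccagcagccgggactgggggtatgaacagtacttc
564Igi mouse 21, β (TRBV2, TRBJ2-5): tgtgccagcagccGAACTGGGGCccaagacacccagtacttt
564Igi mouse 13, β (TRBV13-3, TRBJ2-5): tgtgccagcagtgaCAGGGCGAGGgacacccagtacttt
564Igi mouse 24, β (TRBV13-1, TRBJ2-5): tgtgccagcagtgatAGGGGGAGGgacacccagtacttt

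The clone of WT mouse 11 had 31 of its 32 cells in the effector cluster, that of 564Igi mouse 17 had 21 of 22, that of WT mouse 14 had 12 of 12 and that of WT mouse 23 had 9 of 9. The α chain of the mouse 11 clone held no base outside its V and J matches, while its β chain held 13. D segments were not matched, so the bases of a β chain outside these matches can include them. In 564Igi mouse 21 the β chain shown was paired with 3 α listings, in clonotypes with 24 of 36, 15 of 29 and 10 of 10 effector cells. The 15 of 29 listing holds 2 α chains, and by the β chain alone these cells had 50 effector cells of 82, or 33.8% of the effector cells of the mouse with a receptor. The clones of 564Igi mice 13 and 24, with 7 of 7 and 8 of 15 effector cells, used TRAV21-DV12 with different J segments, and so did the mouse 11 clone. Their β chains were both 39 bases long and differed at 2 positions, C15T and C20G from the mouse 13 to the mouse 24 sequence, counted from 1 at the 5′ end, of which 1 changes the amino acid. This pair of clones was singled out after the sequences were seen.

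**Figure D4:**
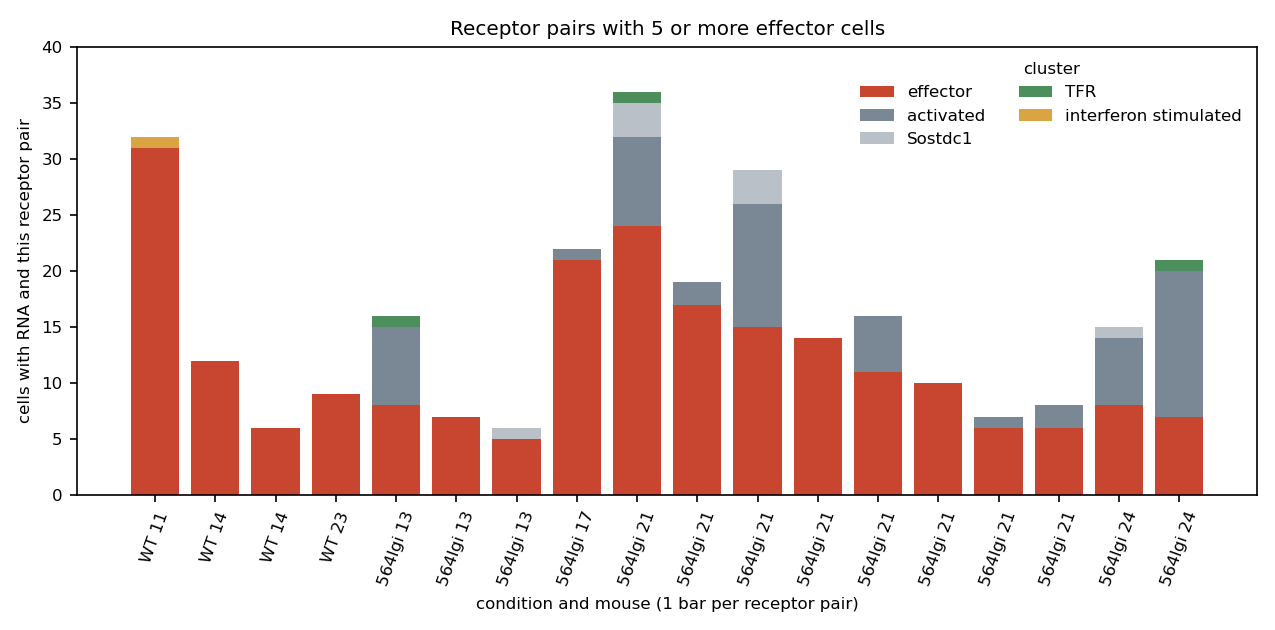
Each bar is 1 clonotype with 5 or more effector cells, its height is the number of its cells with RNA, and colors give their clusters. The 4 bars of WT mice hold 1 cell outside the effector cluster, and the 2 bars of 564Igi mouse 24 hold 7 of 21 and 8 of 15 effector cells.

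The share of effector cells that lay in clones did not pass the test against that of the other cells. The percent of effector cells with a receptor that lay in a clone was 67.2, 53.3, 77.5, 65.0 and 52.4 in WT and 71.3, 73.6, 84.5, 69.2 and 66.7 in 564Igi mice. The mean was 68.1% ± 9.86 against 65.1% ± 6.31 of the other cells, higher in 8 of 10 mice, with a difference of 2.98 (two-sided exact sign-flip p = 0.430). Without the largest effector clone of each mouse the difference was -7.26 (exact sign-flip p = 0.174). Between conditions the percent was 63.1 ± 10.5 in WT and 73.0 ± 6.87 in 564Igi mice (two-sided exact permutation p = 0.135, and p = 0.0238 without WT mouse 14).

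Cells of 1 clone were found together in the effector cluster. For each effector cell, the other cells of its clone were effector cells in 69.9, 55.8, 66.4, 62.1 and 18.2% in WT and 51.8, 54.6, 69.9, 40.8 and 24.2% in 564Igi mice. For the other cells of the same mice the value lay between 0.220 and 2.91%. The means were 51.4% ± 18.3 and 1.29% ± 0.783, higher in 10 of 10 mice, and the difference of 50.1 percentage points had the smallest two-sided p that sign flips of 10 mice can give (exact sign-flip p = 0.00195). When each clone was counted once the difference was 23.1 (exact p = 0.00195), and without the largest effector clone of each mouse it was 29.1, in 8 of 10 mice (exact p = 0.00781). Mice 36 and 34 had the lowest values, which rested on 11 and 16 effector cells in clones. The value of WT mouse 12 rested on 8.

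The clonemates of effector cells that lay outside the cluster numbered 1367. Of these 938 (68.6%) were activated TFH cells and 255 (18.7%) *Sostdc1* TFH cells. Of all cells with a receptor outside the effector cluster, these clusters held 43.4% and 10.4%. This reference also holds cells that were alone in their clonotype, which cannot be clonemates, and the part of this was not tested. Among clonemates the activated share was the higher one in 10 of 10 mice and the *Sostdc1* share in 8 of 10. WT mouse 36 gave 89 of the 255 *Sostdc1* cells, and without it they were 14.3% of 1157, while in 564Igi mice 24 and 34 their share was lower, at 2.78% against 8.55% and 5.04% against 12.65%. TFR cells made up 152 (11.1%) against 42.1%, and their share was the lower one in 10 of 10 mice, from 0% in WT mouse 14 to 26.1% in WT mouse 11. Central memory cells were 4 of the 1367 (0.293%) against 2.73% of all cells with a receptor outside the effector cluster.

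**Figure D5:**
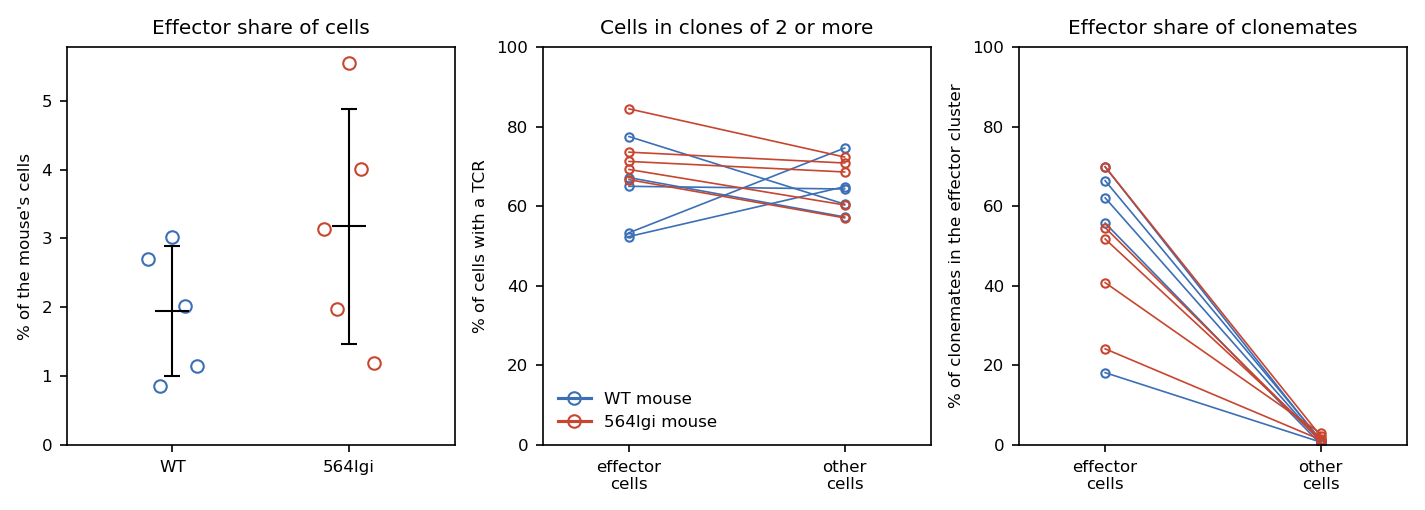
Left, the percent of the cells of each mouse in the effector cluster, with the mean and SD, middle, the percent of cells with a receptor in clones of 2 or more, and right, the percent of clonemates in the effector cluster, with a line for each mouse (blue WT, red 564Igi, n = 5 each). The share of effector cells runs from 0.855 to 5.55%, and the effector percent of clonemates falls from between 18.2 and 69.9 for effector cells to at most 2.91 for other cells.

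The segments and lengths of the receptors showed no difference past the tests. Of 10 V genes held by at least 5% of effector clonotypes, none (0.0%) was called over mice by the exact sign-flip test, and none had an unadjusted p below 0.05. TRAV21-DV12 was used by 5.28% of effector and 2.29% of other clonotypes, TRBV2 by 7.91% and 5.93%, and TRBV3 by 5.84% and 8.88%, each with a Benjamini-Hochberg adjusted exact p of 0.453. The β CDR3 was 14 ± 0.398 amino acids long in effector and 13.9 in other clonotypes, a difference of 0.143 (exact sign-flip p = 0.307). A β CDR3 amino acid sequence that another mouse also held was carried by 9.15% ± 4.10 of the effector β chains of a mouse. For its other β chains this was 6.98% ± 1.24, a difference of 2.17 (exact sign-flip p = 0.158). Without cells that list a second α or β chain this was 3.41 (exact p = 0.0410), and without WT mouse 23 it was -0.21 (exact p = 0.910), so its direction rested on that mouse. Over all mice, 20 of 236 effector β sequences (8.48%) were found in 2 or more mice, of which 2 in effector cells of more than 1 mouse. Of the 7255 β sequences of all cells, 240 (3.31%) were found in 2 or more mice. A sequence held by more mice has more chances to be among the effector sequences, so these 2 shares are not alike. Adjusted over the 5 comparisons of clones, clonemates, length, condition and shared β sequences, the exact p was 0.00977 for the clonemates and 0.264 to 0.430 for the others.

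Effector cells of clones and single effector cells were compared within the 7 mice that had 10 or more of each, WT mice 11, 23 and 36 and 564Igi mice 13, 17, 21 and 24. No gene of 9637 (0.0%) was called by limma with or without its trend, and 104 (1.08%) were higher and 615 (6.38%) lower in clones at an unadjusted p below 0.05. *Ccl5* had the smallest p. Its level was 5.47, 4.57 and 3.48 in the clones and 3.2, 3.92 and 1.85 in the single cells of the WT mice, and 5.61, 6.10, 7.34 and 5.58 in the clones and 6.00, 2.86, 6.54 and 4.40 in the single cells of the 564Igi mice. Clones were higher in 6 of 7 mice, all but mouse 13, with a difference of 1.34 (SE 0.232, limma with Benjamini-Hochberg adjustment, adjusted p = 0.0775), and without mouse 13 *Ccl5* was called. Without the largest effector clone of each mouse, in the 6 mice that still had 10 or more of each, the difference was 0.13 (limma adjusted p = 0.979).

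The further genes of this comparison were chosen after their values were seen. *Ccl4* was found in 44.3% ± 10.7 of clone and 25.4% ± 18.3 of single effector cells, with a difference in level of 0.60 in 7 of 7 mice (limma adjusted p = 0.0901), which was 0.38 without the largest clones. *AW112010* differed by 0.50 in 7 of 7 mice (adjusted p = 0.0901) and by 0.21 without them. *Slamf6* was found in 37.1% of clone and 54.5% of single cells and *Tcf7* in 34.3% and 48.2%, both lower in 7 of 7 mice, with limma adjusted p of 0.235 and 0.458. *Lta4h*, which encodes an enzyme of leukotriene synthesis, was lower by a difference of -0.30 in 7 of 7 mice (adjusted p = 0.0901) and of -0.27 without the largest clones. The differences of *Slamf6* and *Tcf7* without those clones were -0.20 and -0.23.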

How the data were processed

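Splenic CXCR5+PD-1+ CD4 T cells of 5 WT and 5 564Igi chimeras were profiled by droplet RNA and TCR sequencing, 1 library of each kind per mouse. Per the submitters' processing notes, Cell Ranger 4.0.0 and Seurat 3.1.4 were used with GRCm38. The deposited matrix of 13798 genes holds values on a natural log scale, taken by the authors after sctransform normalization of the UMI counts within each condition, with 1 added, and 100% of values were whole once the log was undone (tolerance 1e-06). These corrected counts are not raw counts, so no count model was used. The authors deposited for each cell its raw UMI and gene counts, the percent of mitochondrial and ribosomal UMIs, a heat shock score and the cluster name, and in a TCR table the V and J segments, CDR3 sequences and UMI counts of contigs. The TCR table lists at most 2 entries per field, so a cell with 2 α chains can list no β chain. Mouse and condition came from the sample labels.

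Effector cells were those named Tfh-effector in the cell table. Values were converted to log2(corrected count + 1), with a pseudocount of 1, and averaged over the effector and the other cells of each mouse. Genes found in at least 1% of effector cells in at least 5 mice were tested with limma 3.58.1 in R 4.3.3, with its trend option, over mice with 20 or more effector cells, with calls at adjusted p values (Benjamini-Hochberg) under 0.01 where the log2 fold change exceeded 0.2 in size. For the differences within a mouse, the trend was set on the mean effector level after a first fit with the trend on the mean difference had given implausible standard errors for the genes of largest difference. That first setting is kept as an alternative. The scripts were tested on simulated data. Single values were compared by exact permutation over the 252 assignments of 10 mice (smallest two-sided p 0.00794) or by exact sign flips. Python 3.11.15, numpy 2.4.6, pandas 2.3.3, scipy 1.17.1 and matplotlib 3.10.9 were used. No doublet caller was run, and cells listing 2 α or 2 β chains were kept with an alternative without them. Free RNA was not removed.

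The effector cells, their markers, the gene lists and the tests were chosen with earlier results of these data known. Named genes were the markers, the 12 largest positive and 8 most negative differences of effector from other cells with 1 sign in every mouse, up to 4 members of each list, and, between conditions, called genes, up to 8 genes in each direction without overlap and above 0.2, and up to 2 members of each list, with the 3 smallest p in each direction for the effect against other cells. Other genes, and the list members named beyond these numbers, were chosen after their values were seen. Effector cells held 86372 to 633291 UMIs per mouse. Results on some genes are not reported here.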

Additional observations from a re-analysis of the deposited data

Results flagged for a closer look

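The values of 46 groups of 5 mice were examined for a mouse far from the other 4, meaning that its gap to the nearest mouse exceeded 0.71 of the range of the group, and 3 groups (6.52%) had one. Chance sets apart about 1 in 20 groups. The *Ccnd2* level in effector cells of 564Igi mouse 17 was 1.31, against 0.945 to 1.05 in the other 564Igi mice. In WT mouse 36 the clonemates of effector cells were effector cells in 18.2%, against 55.8 to 69.9% in the other WT mice. That value rests on 11 effector cells in clones. A receptor was read for 68.6% of the effector cells of 564Igi mouse 34, against 84.2 to 88.3% in the other 564Igi mice. In WT mice 11, 12, 14, 23 and 36 this share was 83.1, 65.2, 70.2, 84.5 and 45.7%, so mouse 34 was not the lowest of the 10.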

How the results depend on the processing

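No paired analysis was possible because the mouse numbers are not shared between conditions, and the labels pair no mice. The 1 gene called between conditions became 0 by limma without the trend (*Gm42031*, limma adjusted p = 0.183, with 515 genes at an unadjusted p below 0.05), 2 with counts per 10000, 15 with mice weighted by effector cells, 6 at an adjusted p below 0.05 with no limit on the fold change, 6 with only mice with 40 or more effector cells, 6 without mice 34 and 36, 3 with a term for their libraries (chosen after seeing the data), and 1 to 4 with a mouse left out, 4 of them without 564Igi mouse 34 and 2 without WT mouse 12, 23 or 36 or 564Igi mouse 17. The 0 genes called for the effect against other cells became 0 to 2 with a mouse left out (2 without WT mouse 12, 1 without 564Igi mouse 17 or 34) and 1 with the term for the libraries of mice 34 and 36, and the 0 genes called for clones against single cells 0 to 1. Both stayed at 0 by limma without the trend (541 and 711 at an unadjusted p below 0.05) and with the trend on the mean difference (542 and 642). The excess of clones among effector cells of 2.98 turned to -7.26 without the largest effector clone of each mouse. The difference in β sequences held by another mouse, 2.17, was 3.41 (exact p = 0.0410) without cells that list 2 chains of a kind, and ran from -0.21 without WT mouse 23 to 2.92 with a mouse left out. The difference between conditions in effector cells in clones ran from 7.10 to 13.6, past 0.05 without WT mouse 14. The causes were not tested, apart from the change in cells or mice that each alternative makes. Of 151 values for the summaries of comparisons under alternatives, 130 kept their direction and side of the threshold or stayed within 1.5 times the count, 17 counts moved further, 2 values changed sign and 2 passed the threshold. Of 456 for single genes, 434 kept direction and side, 19 passed the threshold, 1 lost it and 2 moved beyond the spread between mice. Against other cells, the differences of *Ccl5* and *Gzmk* were 7.47 and 3.57 with counts per 10000. Mice with few effector cells limit the depth, with 23 cells in WT mouse 12 and 35 in 564Igi mouse 34.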

Other observations

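Among the 163 effector cells that lacked *Ccl5* or *Gzmk*, *Eomes* was found in 39.1, 50, 72.7, 66.7 and 70.4% in WT and 83.3, 76.5, 75.0, 87.5 and 81.3% in 564Igi mice, so that every 564Igi mouse was the higher one. The means were 59.8% ± 14.6 and 80.7% ± 5.10 (two-sided exact permutation p = 0.00794, the smallest possible, and 0.143 after adjustment over the 18 shares compared in this way). Among the 519 effector cells with both transcripts the means were 60.1% ± 9.44 and 58.4% ± 12.7 (exact permutation p = 0.817). The difference between these 2 results was not tested. The 163 cells were placed in the cluster by genes other than this pair, which can include *Eomes*. The test therefore cannot tell condition from how these cells were chosen, and nothing is read from it. The values among the 163 cells also rest on few cells in some mice. In WT mouse 12, 73.9% of 23 effector cells held both transcripts, and in 564Igi mouse 21, 95.4% of 173.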
